A study of Dugesia japonica with 4 samples.

Results

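RNA helicases, piwi relatives and RNA-binding proteins were followed in amputated heads of the freshwater planarian Dugesia japonica, as 105 of the 15850 assembled transcript features in the deposited tables. A feature was included when its protein name contained 1 of 15 terms: piwi, argonaute, vasa, nanos, pumilio, bruno, tudor, RNA helicase, DEAD, heterogeneous nuclear ribonucleoprotein, poly(A) binding, polyadenylate-binding, splicing factor, small nuclear ribonucleoprotein or RNA-binding. Of 106 matches, 1 with a nucleolar name was left out. The names were transferred from other flatworms in most cases, 17 features being named after D. japonica itself, 10 after the planarian Schmidtea mediterranea and the others after parasitic flatworms or Macrostomum. No name held argonaute or pumilio.

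The study compared heads of untreated wild-type worms with heads that had regrown while the worms were kept in 1 mM BaCl2, a blocker of potassium channels, which these heads had come to tolerate. Each group had 2 libraries of poly(A) RNA, and each library pooled 25 worms, with 35 days in BaCl2 for the treated worms. The labels do not say whether the control heads had also regrown, nor whether the worms of either group were fed, so regrowth, time without food and BaCl2 cannot be told apart. Values are FPKM, a fragment count divided by the length of the feature and the size of the library, on the scale of the table in which the authors pooled the replicates.

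Planarians renew their tissues from neoblasts, stem cells that are known for granules rich in RNA and protein. Piwi proteins bind small RNAs that silence transposons, Vasa is a DEAD-box helicase that acts in the same granules, and Tudor proteins bind methylated Piwi. Outside stem cells, RNA helicases unwind RNA during splicing, ribosome assembly, export, translation and decay, while spliceosomal small nuclear ribonucleoproteins (snRNPs) and their partners remove introns. Heterogeneous nuclear ribonucleoproteins (hnRNPs) coat nuclear transcripts, and poly(A)-binding proteins coat the tail of mature mRNA, where they act in its translation and stability.

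Recovered fragments numbered 5901128 and 8304630 in the control libraries and 3395482 and 6875650 in the BaCl2 libraries. Correlations of log2(FPKM + 1) were taken over 2852 long features that reached the fragment minimum given below. They were r = 0.985 between the control libraries, 0.961 between the BaCl2 libraries and 0.919 to 0.939 between groups. Neuronal markers, which a head should hold, were found in all 4 libraries. Among them the longest piece of choline O-acetyltransferase had 13.8 and 12 FPKM in control heads against 13.3 and 14.3 in BaCl2 heads. Its shorter pieces, too thin to test, overlapped or were higher in both BaCl2 libraries. Of 35 features matched by the neuron list, none was at 0 in both libraries of a group.

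The 105 features carried 67 names and lay on 69 contigs. On 18 contigs several features with related names lay end to end, 54 features in all, with 36 neighbouring pairs, no overlap and a median gap of 156 nt. These pieces of 1 transcript model share a source and are not separate genes. The counts and shares below still take each feature as 1, so such pieces are not independent in them. Among the 93 features with a gene ontology entry, 51 carried nucleic acid binding, 47 ATP binding, 25 helicase activity and 21 RNA binding. Together the members held 12389 and 12651 CPM (fragments scaled to a common library total) in control heads and 11204 and 12643 in BaCl2 heads. Without 1 very abundant DEAD-box helicase these sums were 4512 and 4661 in control and 4188 and 4092 in BaCl2 heads.

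A feature was tested when it had at least 100 fragments over the 4 libraries, which 71 members on 59 contigs did and 34 did not. The test was limma on log2(FPKM + 1), with Benjamini-Hochberg adjusted p under 0.05 over all 7983 features tested. A fold on this scale understates the change of features with low values. Of the 71 tested members 2 fell in BaCl2 heads and none rose, against 113 of all features called (1.42%), 97 of them lower (1.22%) and 16 higher (0.2%). The names of both are those of proteins that bind mRNA: a cytoplasmic poly(A)-binding protein and hnRNP A2. At an unadjusted p under 0.05 there were 6 members, all lower, where 11.8% of all features were lower and 6.98% higher. In heads taken whole, fewer cells of a type and less RNA per cell cannot be told apart.

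The tested members as a group sat a little below the control level. Of the 71, 52 had a log2 fold below 0 (73.2%, against 60.9% of all features) and the median was -0.28, with quartiles at -0.51 and 0.03, against -0.15 for all features. Both BaCl2 libraries lay below both control libraries in 36 of the 71 members (50.7%, against 36.4% of all features) and above them in 7 (9.86%, against 19.1%), while 28 overlapped. Beyond a log2 fold of 1 there were 3 members, where 10.9% of all features were. The choice of scale moved this: when libraries were rescaled by median ratios, 42 members were below 0 with a median of -0.12 against 0.0085 for all features, and by library totals 41 were below 0 with a median of -0.060 against 0.033.

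BaCl2 replicate 1, which had the fewest fragments, stood lower than BaCl2 replicate 2. Set against each control library in turn, its median difference over the tested members was -0.40 and -0.36, against -0.24 and -0.23 over all features. For BaCl2 replicate 2 the medians were -0.19 and -0.16, against -0.07 and -0.07 over all features. The part of depth in these differences was not tested.

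**Figure D1:**
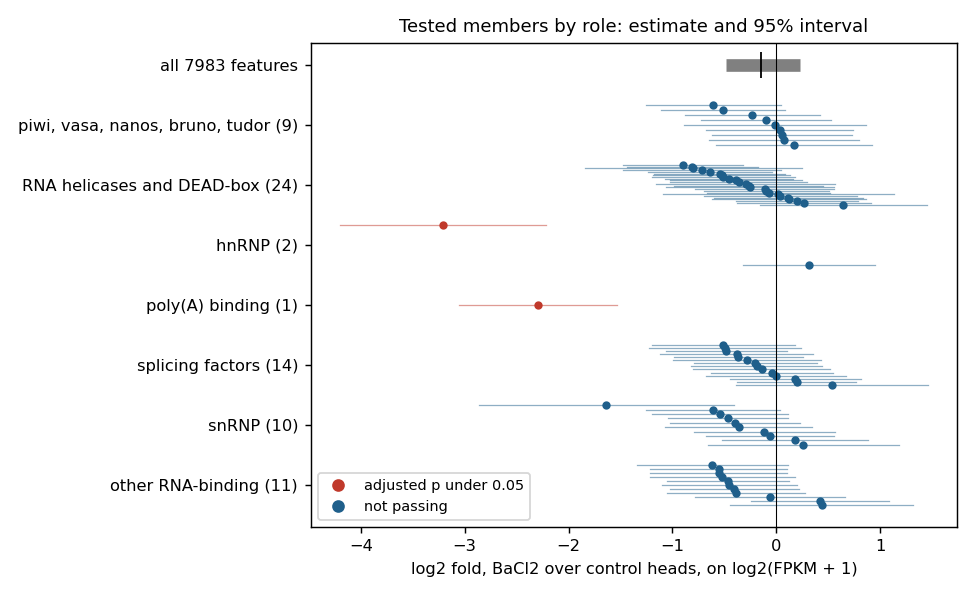
Log2 fold of BaCl2 over control heads on log2(FPKM + 1) for the 71 tested members, 1 point each with its 95% interval, in rows by role, with the number of members in parentheses; the grey bar spans the quartiles of all 7983 features and its tick is their median, -0.15. The 2 red points at -3.21 and -2.29, hnRNP A2 and the cytoplasmic poly(A)-binding protein, passed, and the other 69 lie between -1.63 and 0.65.

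Among proteins that bind mRNA, the cytoplasmic poly(A)-binding protein rested on the most fragments of the 2 that fell. Its feature TCONS_00004122, named after S. mediterranea, covers 2017 nt from position 1 of its contig. It had 24.4 and 23.6 FPKM in the control libraries (991 and 1476 fragments) and 5.61 and 2.93 FPKM in the BaCl2 libraries (175 and 154 fragments). Both BaCl2 values lay far below both control values, and the 2 control values lay close together. The means were 24.0 ± 0.551 FPKM and 4.27 ± 1.89 FPKM (SD, n = 2 each), a 5.62-fold difference. The log2 fold was -2.29 (SE 0.32, limma adjusted p = 0.0321), and -2.67 to -1.92 with each library left out. In the authors' deposited table this feature had a log2 fold of -2.49 with a q-value of 0.0043. The call was lost with every feature of at least 1 FPKM on average in the fit (adjusted p = 0.288), with median-ratio scaling (0.117) and with a pseudocount of 0.1 (0.0624), at folds of -2.53 to -2.14. In both voom fits it was the 1 member called, against 2.44% of all features with the deposited scaling and 1.32% with library totals.

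Both other features with a poly(A)-binding name were too thin to test. TCONS_00001793, of 211 nt, had 17.6 and 17.9 FPKM in control heads and was listed at 0 in BaCl2 replicate 1 and at 18.4 FPKM in replicate 2. It thus stood at the control level in 1 BaCl2 library and at 0 in the other, on 14, 22, 0 and 19 fragments. TCONS_00004318, of 68 nt, had 5 and 27 control fragments and 0 and 5 BaCl2 fragments.

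The hnRNP group had 2 members, and their values lay on opposite sides of the control level. hnRNP A2, known from mammals for splicing and for the transport of mRNA, was measured by TCONS_00014753, a 380 nt feature at positions 155 to 534 of its contig. Its values were 17.3 and 13.7 FPKM in control heads against 1.63 and 0.193 in BaCl2 heads. The groups did not overlap, but the BaCl2 values rest on 5 fragments and 1 fragment, against 69 and 84 in control heads. Their exact 95% Poisson intervals reached from 0.529 to 3.80 FPKM and from 0.0049 to 1.08 FPKM, below the control intervals of 13.4 to 21.8 and 10.9 to 16.9 FPKM. Intervals and floors cover counting error only. The log2 fold was -3.21 (SE 0.41, limma adjusted p = 0.0245), and -3.78 to -2.64 with each library left out. It passed the fragment minimum through its control libraries alone. In the authors' deposited table its q-value was 0.283. It also missed the threshold with features of at least 1 FPKM (0.284), with a pseudocount of 0.1 (0.105), with median-ratio scaling (0.0996) and in the voom fits on fragments (0.0534 with the deposited scaling, 0.0916 with library totals).

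hnRNP K, which in mammals binds C-rich RNA, had 49.1 and 48.2 FPKM in control heads against 57.4 and 64.6 in BaCl2 heads. Both BaCl2 libraries were above both control libraries, and the difference did not pass (log2 fold 0.32, 95% interval -0.32 to 0.95, limma adjusted p = 0.526).

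**Figure D2:**
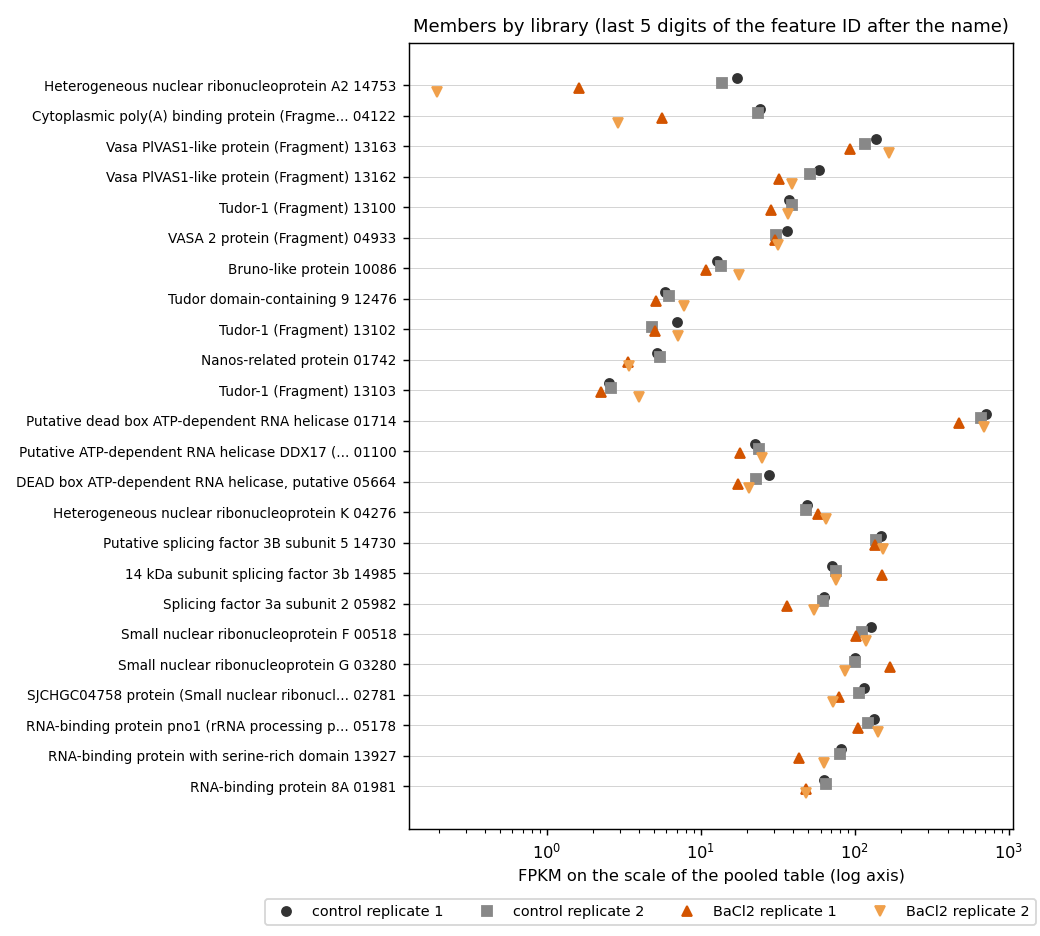
FPKM of members in each of the 4 libraries on a log axis, 1 row per feature: those that passed, the tested piwi, vasa, nanos, bruno and tudor features, and the most abundant ones of each other role. hnRNP A2 and the cytoplasmic poly(A)-binding protein show BaCl2 symbols well to the left of the control symbols, while the DEAD-box helicase TCONS_00001714, at 472 to 706 FPKM, lies farthest to the right.

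Among the relatives of germ cell and neoblast genes, 22 features on 8 contigs, 9 were tested and none passed. Their median log2 fold was -0.01, with 5 below and 4 above 0. The sign of that median was not stable: it was 0.15 with median-ratio scaling, 0.30 by library totals, and from -0.25 to 0.24 with a library left out. Neoblast and proliferation markers were given by a separate list (PCNA, MCM proteins, cyclin B, ribonucleotide reductase, histone H2B and the like). Of its 28 features 15 were tested, 12 were below and 3 above 0 with a median of -0.65, and none passed. The best covered PCNA feature had 95.5 and 83.8 FPKM in control heads against 100 and 71.6 in BaCl2 heads, with overlap. A weak histone H2B feature, TCONS_00005636, was higher in both BaCl2 libraries (log2 fold 1.36). Matching by words also brought in DNA polymerase eta and a topoisomerase 2 binding protein. The tested features of the list summed to 1109 and 1100 FPKM in control heads against 795 and 1066 in BaCl2 heads. Without 1 abundant histone H2B feature, which overlapped between groups, the sums were 439.6 and 390.5 against 307 and 255 FPKM. The part of this list in the values below was not tested.

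The vasa group holds 2 genes by contig. Vasa PlVAS1-like protein had its longest piece in TCONS_00013162 (2389 nt), at 58.1 and 51.5 FPKM in control heads against 32.4 and 39.2 in BaCl2 heads. Both BaCl2 libraries were lower, 1.53-fold by the means, and the difference did not pass (log2 fold -0.60, SE 0.27, 95% interval -1.26 to 0.05, limma adjusted p = 0.290). A second piece of 181 nt on the same contig, TCONS_00013163, had 137 and 116 FPKM in control heads against 93.1 and 167 in BaCl2 heads. There the groups overlapped, at a log2 fold of -0.01. VASA 2, TCONS_00004933, had 36.2 and 30.9 FPKM in control heads against 30.5 and 31.8 in BaCl2 heads, overlapping, with a log2 fold of -0.10 (95% interval -0.72 to 0.52).

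The 3 piwi features were at the limit of what these libraries detect, and none was tested. DjPiwiA, a D. japonica piwi gene, was measured over 231 nt with 3 and 11 fragments in control and 10 and 14 fragments in BaCl2 heads, or 2.81 and 6.70 against 12.2 and 10.1 FPKM. The BaCl2 values were above the control values, on 38 fragments in all. A piwi-like protein had 2 pieces whose values went apart: TCONS_00011631 had 1.80 and 1.07 FPKM in control heads against 0.587 and 0.465 in BaCl2 heads, and TCONS_00011632 was listed at 0 and 2.21 FPKM in control heads against 2.21 and 4.16 in BaCl2 heads. Both pieces summed gave 12 and 23 fragments in control and 9 and 23 in BaCl2 heads. A difference in piwi transcripts was therefore not detectable at this depth.

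Tudor names made up 13 features on 2 contigs. Tudor-1, named after S. mediterranea, lay in 6 pieces, the best covered of which, TCONS_00013100, had 37.2 and 39.3 FPKM in control heads against 28.7 and 36.6 in BaCl2 heads (log2 fold -0.23, limma adjusted p = 0.658). The BaCl2 values lay just below the control values. TCONS_00013102 had 7 and 4.86 against 5.08 and 7.07 FPKM (log2 fold 0.03), and TCONS_00013103 had 2.52 and 2.62 against 2.24 and 3.99 FPKM (log2 fold 0.17). These overlapped between groups, and level differed more between pieces of the contig than between groups. The remaining 3 pieces, of 135 to 304 nt, held 14 to 24 fragments each. TCONS_00013101 had 12 of its 17 fragments in BaCl2 replicate 1, TCONS_00013104 had 10 of 14 in control replicate 2, and TCONS_00013105 had 13 of 24 in BaCl2 replicate 1. Over the 6 pieces summed, Tudor-1 had 11.6 and 11.5 FPKM in control heads against 9.59 and 12 in BaCl2 heads, a log2 fold of -0.10.

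Tudor domain-containing 9, a helicase with a Tudor domain that acts with Piwi proteins in mouse germ cells, lay in 7 pieces. Its longest, TCONS_00012476 (1759 nt), had 5.90 and 6.26 FPKM in control heads against 5.15 and 7.78 in BaCl2 heads, overlapping (log2 fold 0.05, 95% interval -0.62 to 0.73). A 95 nt piece, TCONS_00012473, had 16 and 3 fragments in control and was listed at 0 in both BaCl2 libraries. The other 5 pieces held 26 to 38 fragments each, and in 4 of them the groups overlapped. They were TCONS_00012470 (12 and 4 control fragments, 6 and 10 BaCl2 fragments), TCONS_00012471 (10 and 8, 7 and 13), TCONS_00012472 (9 and 14, 7 and 8) and TCONS_00012475 (3 and 12, 16 and 3). In TCONS_00012474, at 33.4 and 39.8 FPKM in control heads against 29.0 and 21.5 in BaCl2 heads, the BaCl2 values were the lower. Summed over the contig the gene had 6.28 and 6.05 FPKM in control heads against 5.56 and 7.23 in BaCl2 heads.

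A nanos-related protein was low in both groups; Nanos represses mRNA translation and is known from the germ cells of planarians. It had 5.18 and 5.42 FPKM in control heads against 3.38 and 3.45 in BaCl2 heads, from 36, 58, 18 and 31 fragments. The groups did not overlap and the difference did not pass (log2 fold -0.51, SE 0.25, limma adjusted p = 0.312). A bruno-like protein, whose S. mediterranea relative is needed to keep neoblasts, had 12.7 and 13.6 FPKM in control heads against 10.9 and 17.7 in BaCl2 heads for TCONS_00010086 (log2 fold 0.07, overlapping). Its 147 nt piece, TCONS_00010087, had 117 and 107 FPKM in control heads against 56.5 and 63.7 in BaCl2 heads, on 27, 38, 10 and 19 fragments. Both BaCl2 values of this short piece were lower, and it was too thin to test.

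RNA helicases were the largest group, with 38 features on 21 contigs, of which 24 on 17 contigs were tested. None passed, and the median was -0.28. Of the 24, 17 were below 0 (70.8%, against 60.9% of all features). In 12 of the 24 both BaCl2 libraries lay below both control libraries, against 36.4% of all features. Under median-ratio scaling the median was -0.14 and by library totals -0.11, so it kept its sign. The most abundant member of all was a DEAD-box helicase named after Schistosoma mansoni, TCONS_00001714, over positions 20 to 3157 of its contig. It had 706 and 655 FPKM in control heads against 472 and 691 in BaCl2 heads. BaCl2 replicate 1 was low and BaCl2 replicate 2 lay within the control range (log2 fold -0.25, 95% interval -1.06 to 0.56).

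The next most abundant helicases were DDX17, which in mammals acts in splicing, and a DEAD-box helicase with no further name. DDX17 had 22.4 and 23.8 FPKM in control heads against 18.0 and 25.1 in BaCl2 heads, overlapping (log2 fold -0.11). The unnamed helicase, TCONS_00005664, had 27.8 and 22.8 FPKM in control heads against 17.4 and 20.7 in BaCl2 heads, both BaCl2 values being lower (log2 fold -0.39, limma adjusted p = 0.447).

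Among the tested helicases the 2 lowest folds belonged to features named after helicases of ribosome assembly, and neither passed. These 2 were named for the size of their folds, and whether helicases of this role fell together was not tested. Further tested helicases with names of this role stood closer to control. DDX54 had a log2 fold of -0.07, both BaCl2 values being slightly lower, and DDX27 had -0.29, with overlap. DHX37/DHR1, known from yeast and mammals for the maturation of the small ribosomal subunit, had 14.9 and 14.1 FPKM in control heads against 7.10 and 7.55 in BaCl2 heads. The replicates lay close together and the BaCl2 level was 1.98-fold lower by the means (log2 fold -0.90, SE 0.24, 95% interval -1.47 to -0.32, limma adjusted p = 0.139). DDX52, whose yeast relative also acts on ribosomal RNA, had 19.6 and 15.6 FPKM in control heads against 10.4 and 8.76 in BaCl2 heads for its longest piece, 1.83-fold lower (log2 fold -0.81, SE 0.26, limma adjusted p = 0.191). Its other 2 pieces, untested, were lower in both BaCl2 libraries too, at 9.66 and 12.6 against 6.78 and 6.32 FPKM and at 6.54 and 4.51 against 0 and 1.90 FPKM.

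A few further helicases were named after their values were seen, because several pieces of 1 contig could be read together. DDX47, another helicase of ribosomal RNA processing, had 8.70 and 9.19 FPKM in control heads against 5.95 and 4.88 in BaCl2 heads in 1 piece and 4.87 and 2.74 against 1.83 and 1.88 FPKM in the other. Both pieces were lower in both BaCl2 libraries, at log2 folds of -0.64 and -0.71. DDX11, which despite its matched name is known in mammals as a DNA helicase of chromosome cohesion, had 3 pieces too thin to test alone. Summed, they had 28 and 71 fragments in control and 6 and 9 in BaCl2 heads, or 5.43 and 8.96 against 1.52 and 1.35 FPKM (log2 fold -1.72, SE 0.31, limma adjusted p = 0.0608 in the fit on summed features). Both BaCl2 values were lower, the control values lay apart, and the difference did not pass. The sum reached the fragment minimum mainly through its control libraries, and summing was chosen after seeing the data. This p is therefore no fair test.

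Me31B, a helicase of mRNA storage and repression in Drosophila, lay in 7 pieces named after D. japonica. Its longest piece, TCONS_00012736 (1720 nt), had 12.1 and 13.9 FPKM in control heads against 14.8 and 15.2 in BaCl2 heads. Both BaCl2 values were slightly higher (log2 fold 0.20, limma adjusted p = 0.672). The 4 shorter tested pieces had log2 folds of 0.65, 0.27, 0.04 and -0.36, in order along the contig, and none passed. Summed over the 7 pieces the values were 7.10 and 7.87 FPKM in control heads against 8.60 and 8.60 in BaCl2 heads. A helicase named cgh-1 had 2 pieces too thin to test, summing to 13 and 55 fragments in control and 7 and 1 in BaCl2 heads. A DEAD-box helicase in 3 pieces, TCONS_00009401 to TCONS_00009403, summed to 10.5 and 9.87 FPKM in control heads against 9.77 and 4.73 in BaCl2 heads (log2 fold -0.51). Among the features caught by the word DEAD was also a chromatin remodeller, SMARCAD1 by its long name, with 2 pieces at log2 folds of -0.52 and -0.09.

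Splicing factors numbered 16 features, 14 of them tested. None passed, 11 were below 0 with a median of -0.20, and by library totals 7 were below 0 and the median was -0.01. Several belong to the SF3A and SF3B parts of the U2 snRNP, which recognises the branch point. SF3B subunit 5 had 149 and 138 FPKM in control heads against 134 and 153 in BaCl2 heads, overlapping, with a log2 fold of 0.00. The 14 kDa SF3B subunit had 71.0 and 75.3 FPKM in control heads against 150 and 75.5 in BaCl2 heads, so that BaCl2 replicate 1 alone stood high. Its log2 fold was 0.54 (SE 0.38, limma adjusted p = 0.465), and 0.05 without BaCl2 replicate 1. SF3A subunit 2 had 62.8 and 62.3 FPKM in control heads against 36.2 and 54.0 in BaCl2 heads (log2 fold -0.49, limma adjusted p = 0.409). SF3B subunit 1, the largest subunit, had 6.60 and 6.53 FPKM in control heads against 3.41 and 5.41 in BaCl2 heads (log2 fold -0.51, limma adjusted p = 0.368). Thus subunits of the same particle lay on both sides of 0, with BaCl2 replicate 1 the library farthest from control in the last 3.

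The snRNP proteins numbered 12 features, 10 of them tested. None passed, 8 were below 0 and the median was -0.38. With median-ratio scaling 6 were below 0 and the median was -0.22, and by library totals these were 6 and -0.19. Their lowest value was a feature named Sm D1, TCONS_00015754 (437 nt), a protein of the ring that sits on most spliceosomal RNAs. It had 15 and 17.6 FPKM in control heads against 8.66 and 2.2 in BaCl2 heads, from 79, 143, 35 and 15 fragments. The BaCl2 values were both lower and differed widely from each other (log2 fold -1.63, SE 0.51, 95% interval -2.86 to -0.41, limma adjusted p = 0.179). It passed without control replicate 1 (0.0151), without control replicate 2 (0.0459) and without BaCl2 replicate 1 (-2.43, 0.0153), but not without BaCl2 replicate 2 (-0.84, 0.0766). Such a fit leaves 1 library in a group and assumes that it varies like the libraries of the other group; over all features it called 225 to 957 in place of 113. A second feature with the name Sm D1 on another contig, TCONS_00001419, had 59.2 and 56.6 FPKM in control heads against 43.7 and 43.6 in BaCl2 heads (log2 fold -0.40). The feature with the larger fold was thus the less abundant of the 2.

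The other ring proteins were among the most abundant members. Protein F had 128 and 112 FPKM in control heads against 102 and 119 in BaCl2 heads, overlapping (log2 fold -0.12). Protein G had 101 and 100.1 FPKM in control heads against 169 and 85.9 in BaCl2 heads, BaCl2 replicate 1 being high and replicate 2 low (log2 fold 0.26, and -0.22 without BaCl2 replicate 1). Sm D3 had 115 and 106 FPKM in control heads against 79.3 and 72.0 in BaCl2 heads, both BaCl2 values being lower (log2 fold -0.54, limma adjusted p = 0.327). A protein of the U4/U6.U5 particle had 50.7 and 43 FPKM in control heads against 28.2 and 32.7 in BaCl2 heads (log2 fold -0.61, SE 0.27, limma adjusted p = 0.286).

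Features with other RNA-binding names numbered 12, of which 11 were tested. None passed, and the median was -0.45. Of the 11, 9 were below 0 (81.8%, against 60.9% of all features). In 8 of the 11 both BaCl2 libraries lay below both control libraries, against 36.4% of all features. With median-ratio scaling the median was -0.31, and by library totals it was -0.35. Pno1, an assembly factor of the small ribosomal subunit, was the most abundant at 132 and 122 FPKM in control heads against 105 and 142 in BaCl2 heads, with overlap (log2 fold -0.06). The serine-rich RNA-binding protein, in mammals a splicing activator that joins the exon junction complex, had 81.2 and 80.6 FPKM in control heads against 43.3 and 63.5 in BaCl2 heads (log2 fold -0.62, SE 0.30, limma adjusted p = 0.319). RNA-binding protein 8A, a core protein of that complex, had 63.1 and 64.9 FPKM in control heads against 48.3 and 48.1 in BaCl2 heads (log2 fold -0.40, limma adjusted p = 0.423). Both of these were lower in each BaCl2 library without passing. RNA-binding protein 42 had 23.9 and 20.0 FPKM in control heads against 12.7 and 16.8 in BaCl2 heads (log2 fold -0.55, limma adjusted p = 0.319).

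What the test could resolve limits these statements. For the 69 tested members that did not pass, the 95% interval reached a median of 0.66 on the log2 scale to either side of the estimate, and their estimates ran from -1.63 to 0.65. A p that missed the threshold therefore does not show that the level was the same.

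Short, thin features gave the widest folds. The 34 untested members had a median length of 240 nt, against 776 nt for the tested ones, and log2 folds on the log2(FPKM + 1) scale from -8.25 to 1.22. Of these 34, 14 were beyond 1 in log2 fold, against 3 of the 71 tested. With at least 10 control fragments and 0 in both BaCl2 libraries there were 3 members, against 1.28% of all features, and there was none the other way round, against 1.01% of all features. They were pieces of DHX35 (TCONS_00007471, 84 nt, 21 control fragments), Tudor domain-containing 9 (TCONS_00012473, 95 nt, 19 fragments) and a putative pre-mRNA splicing factor (TCONS_00001629, 81 nt, 21 fragments). With a floor of 3 fragments in each BaCl2 library, their control means were 2.98, 2.88 and 2.64 times the mean BaCl2 floor. These ratios leave out the counting error of the control fragments. The Tudor piece had 329 and 40.1 FPKM in control heads, control replicate 2 being below its mean BaCl2 floor of 64.0 FPKM.

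Of the Tudor domain-containing 9 pieces described above, the next one along the contig was also lower in both BaCl2 libraries and the longest one overlapped. The other DHX35 pieces had 3.16 and 3.79 FPKM in control heads against 2.39 and 4.12 in BaCl2 heads, and 4.52 and 6.26 against 4.81 and 7.08 FPKM, overlapping in both cases. The piece of the Putative pre-mRNA splicing factor had no neighbour among the members. It was also the 1 member that passed when all features with a mean of 1 FPKM or more were fitted (limma adjusted p = 0.0328), where 20 of 15683 features were called (0.128%). A q-value under 0.05 stood in the authors' deposited table for 3.43% of all features and for 4 members, namely the cytoplasmic poly(A)-binding protein and these 3 short pieces.

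**Figure D3:**
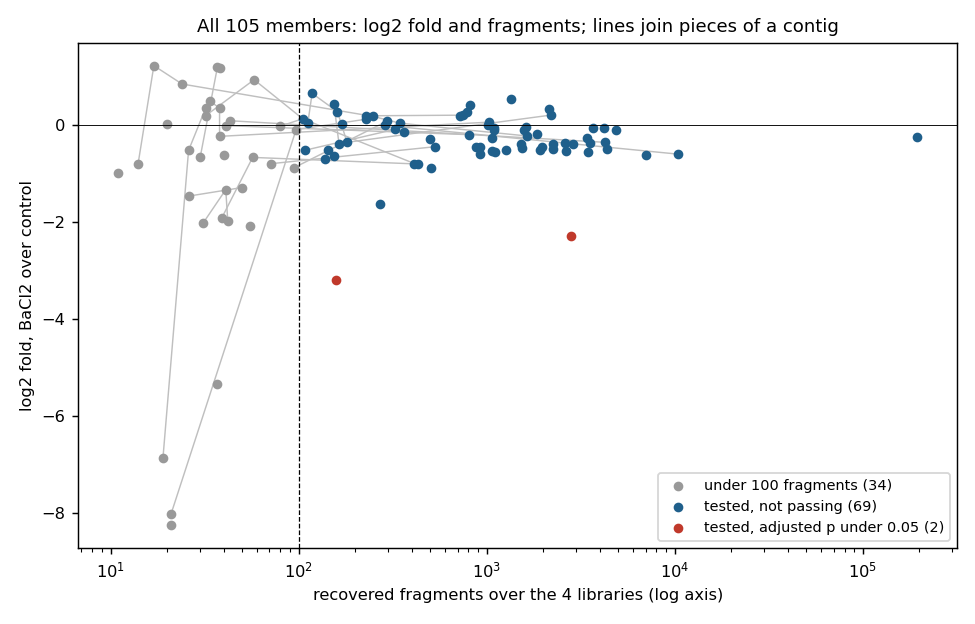
Log2 fold of BaCl2 over control heads against recovered fragments over the 4 libraries (log axis) for all 105 members; grey lines join pieces of 1 contig and the dashed line marks the minimum of 100 fragments. Folds below -5 occur only to the left of the line, and where a grey line leaves such a point it leads to pieces between -1 and 1.

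Other factors of RNA processing, from a list of names outside the 105 (decapping, exosome, nonsense-mediated decay, polyadenylation, export and related terms), also lay more often below 0 than above. Of 44 features 25 were tested, none passed, 21 were below 0 and the median was -0.37, against -0.15 for all features. A piece of exportin-5, which carries microRNA precursors out of the nucleus in mammals, had 178 and 104 FPKM in control heads against 226 and 131 in BaCl2 heads, with overlap. A 42 nt piece of the same contig, untested, had 10 and 2 fragments in control heads and was listed at 0 in both BaCl2 libraries. The scavenger decapping enzyme, which clears cap remnants, had 78.0 and 69.3 FPKM in control heads against 58.5 and 54.7 in BaCl2 heads (log2 fold -0.37, limma adjusted p = 0.467). A nonsense-mediated decay helicase of the Rent1 type had 53.9 and 53.8 FPKM in control heads against 32.2 and 51.4 in BaCl2 heads (log2 fold -0.40). In these last 2, both BaCl2 libraries lay below both control libraries.

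Beside these values stood those of cell type markers, matched on words of the protein name. The muscle list thus also caught non-muscle and unconventional myosins, and the neuron list syntaxin-18 and extended synaptotagmin. The intestine list also caught phospholipases, and the cilia and epidermis list cytoplasmic dynein 1. Neuron features had a median log2 fold of 0.34 with 12 of 16 tested above 0, and the tested ones summed to 1278 and 1380 FPKM in control heads against 2574 and 2149 in BaCl2 heads. An 88 nt feature of neuropeptide-18, with 191 fragments in all, made up 732 and 776 against 1909 and 1385 FPKM of this, and without it the sums were 546 and 604 against 665 and 764 FPKM. Muscle features had a median of 0.19 (34 of 44 tested, 13 below 0, 1 called lower). The tested ones summed to 3735 and 3224 FPKM in control heads against 4170 and 5414 FPKM in BaCl2 heads. Cilia and epidermis features had a median of -0.44 (25 of 38 tested, 19 below 0, 2 called lower). Their sums were 10823 and 10682 FPKM against 7909 and 12227 FPKM. Without 1 abundant intermediate filament feature these were 6116 and 5980 FPKM against 5153 and 6646 FPKM. Over all features 1.22% were called lower. Intestine features had a median of -0.12 (20 of 29 tested, none called) with sums of 1368 and 1320 FPKM against 1214 and 1471 FPKM. Of all these marker features only a titin feature was at 0 in both libraries of a group, the control group. The part of cell makeup in the members' values was not tested.

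**Figure D4:**
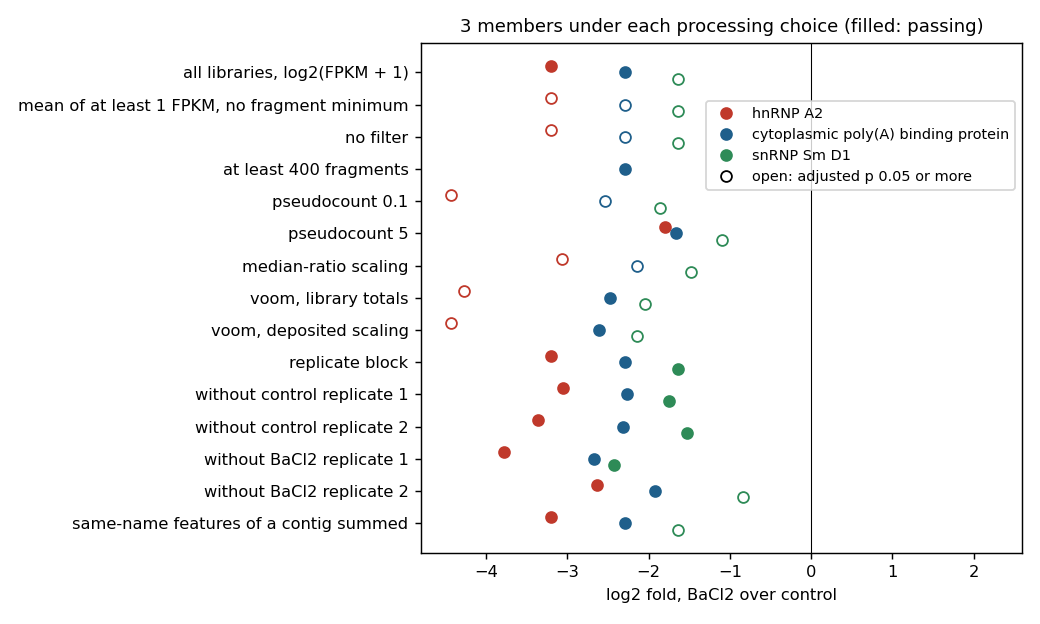
Log2 fold of BaCl2 over control heads for hnRNP A2, the cytoplasmic poly(A)-binding protein and Sm D1 (TCONS_00015754) under each processing choice, 1 row per choice; filled points have an adjusted p under 0.05 and open points do not. All points lie left of 0, and the poly(A)-binding protein passes in 10 of its 14 alternatives, hnRNP A2 in 7 of 13 and Sm D1 in 4 of 13. These tallies include the fits with a library left out or with the replicate number as a block, which called many more features. All passes of Sm D1 and most of hnRNP A2 came from those fits.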

How the data were processed

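In 3 deposited tables the authors gave expression as FPKM per feature, 1 pooling the replicates of each group and 2 holding 1 control and 1 BaCl2 library each, per the file headers. Beside it stand the authors' log2 fold change and their p-value and q-value columns. The submitters' processing notes name Bowtie, TopHat, TopHat2 2.0.13, Cufflinks 2.2.1 and Cuffdiff, and the labels TruSeq poly(A) libraries. Which assembly the contigs belong to is not stated there. Pooled values were weighted sums of the replicate values (weights 0.640 and 0.357 for control, 0.645 and 0.358 for BaCl2; within 0.1% in 15203 of 15204 features), which put the 4 libraries on 1 scale. Where a replicate value was missing it was worked out from the pooled table (752 values, 61 above 0). FPKM were turned back into fragments by assuming fragments of 200 nt on average (SD 80 nt); 99.7% of values came out whole within 0.1 fragments. 1 fragment stands for 0.146 to 0.293 FPKM in a feature of 400 nt.

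Limma 3.58.1 (R 4.3.3; eBayes with a mean trend, two-sided, 2 residual degrees of freedom) was run on log2(FPKM + 1) without a block and tested on simulated data. The labels call the libraries biological replicates, and do not say that a number marks a shared day or culture. Members and lists were chosen with earlier results of these data known. Named members were those that passed, all piwi, vasa, nanos, bruno and tudor features, the 3 most abundant and the 2 of largest fold among the tested ones of each other role, and those at 0 in both libraries of a group; exceptions are named in the text. The third replicates and starved worms of the design text were not analysed here.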

Additional observations from a re-analysis of the deposited data

How the results depend on the processing

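The count of features called over the whole table, 113, was 20 for features averaging 1 FPKM or more, 20 with no filter, 53 with a pseudocount of 0.1, 177 with a pseudocount of 5, 35 with median-ratio scaling, 195 by voom with the deposited scaling and 225 to 957 with each library left out. Voom on library totals called 53 of its 105 features higher, where 16 of the 113 were. The number of members called, 2, was 1 with at least 1 FPKM and with no filter, where neither of the 2 but the 81 nt piece TCONS_00001629 passed, 1 with at least 400 fragments and in both voom fits, the poly(A)-binding protein, and 0 with a pseudocount of 0.1 and with median-ratio scaling (6 and 4 members at an unadjusted p under 0.05). It was 3 to 4 with each library left out, where the lone library of a group is assumed to vary like the other group. hnRNP A2 has under 400 fragments and so is not in that fit; the cause of the other changes was not tested. The members' median of -0.28 was -0.12 with median-ratio scaling, -0.060 by voom on library totals and -0.40 to -0.21 with each library left out. No named member that passed in any fit changed sign. Without BaCl2 replicate 2 the serine-rich RNA-binding protein (-0.89, adjusted p = 0.0492) and the 14 kDa SF3B subunit (1.03, adjusted p = 0.0420) passed as well. The labels do not say that replicate numbers pair control with BaCl2 libraries, and deviations of same-numbered libraries from their group means correlated with r = 0.145 over 7983 features. With the replicate number as a block 949 features and 4 members were called, adding Sm D1 (adjusted p = 1.5e-05) and DHX37/DHR1 (0.0476). Summing features of 1 name on 1 contig, an alternative chosen after seeing the data, left 30 of 30 named members on their side of the threshold. With 2 libraries a group and as few as 3395482 fragments, small differences and features under 100 fragments were beyond reach.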
